A study of Mus musculus with 6 samples.

Results

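The immediate early genes Fos, Junb, Atf3, Btg2, Klf2 and Klf6 were followed across cells, cell classes, mice and regions of the mouse jejunal epithelium. The 6 genes were taken by name, and all 6 were among the 5674 genes listed in both regions' tables (6839 anterior and 5831 posterior genes). The study carried out MARS-seq, a plate-based method that tags each captured mRNA molecule at its 3' end with a unique molecular identifier (UMI), on 2043 single cells sorted as EpCAM-positive and DAPI-negative, that is, as live epithelial cells. Each of 3 mice, 120 days old and of a mixed CD-1:C57BL/6 background, gave 1 anterior jejunum sample (piece 3 of 12 along the small intestine) and 1 posterior jejunum sample (piece 7 of 12). Villus and crypt cells were combined 1:1 before the sort. The series title concerns ID2 in enteroendocrine differentiation, but the labels give the mice no genotype or treatment, so region and mouse are what can be compared.

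Immediate early genes are those whose transcription starts within minutes of a stimulus, such as a growth factor, a calcium or cAMP signal or a stress, from factors already present in the cell. Their mRNAs are short-lived, and many of their products are transcription factors that act on a later wave of genes. In dissociated tissue they are known to be raised by the handling of the cells as well as by signals the cells received in place. Fos and Junb encode subunits of AP-1, a dimeric transcription factor. Atf3 encodes a stress-induced member of the ATF/CREB family, Btg2 an anti-proliferative regulator of mRNA deadenylation and a target of p53, and Klf2 and Klf6 zinc finger transcription factors of the Krüppel-like family.

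In the GENCODE vM21 annotation of GRCm38, Fos lies on chr12:85473890-85477273 (plus strand), Junb on chr8:84974484-84978718 (minus), Atf3 on chr1:191170296-191218039 (minus), Btg2 on chr1:134075170-134079120 (minus), Klf2 on chr8:72319033-72321656 (plus) and Klf6 on chr13:5861482-5870394 (plus). The 250 bases before the RefSeq start (GRCm38.p6) are shown for Fos, Junb and Btg2, on the strand of the gene and 5' to 3', because they hold the TGACG core through which CREB/ATF factors can bind and, unlike those of Atf3 and Klf2, overlap no annotated exon. They lie at chr12:85473640-85473889, chr8:84978749-84978998 and chr1:134079156-134079405. Capitals mark TGACG, the full cAMP response element TGACGTCA in Btg2 and the TATAAA box in Fos.
Fos: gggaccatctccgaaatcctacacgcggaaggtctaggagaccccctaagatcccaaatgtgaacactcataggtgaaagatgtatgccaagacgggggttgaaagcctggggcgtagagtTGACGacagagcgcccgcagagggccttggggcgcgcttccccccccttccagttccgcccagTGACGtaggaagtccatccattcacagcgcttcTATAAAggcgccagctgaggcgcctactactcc
Junb: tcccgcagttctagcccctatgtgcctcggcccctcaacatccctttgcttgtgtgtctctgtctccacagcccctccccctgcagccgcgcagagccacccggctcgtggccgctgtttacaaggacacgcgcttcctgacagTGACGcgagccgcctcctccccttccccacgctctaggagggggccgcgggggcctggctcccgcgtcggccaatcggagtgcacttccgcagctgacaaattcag
Btg2: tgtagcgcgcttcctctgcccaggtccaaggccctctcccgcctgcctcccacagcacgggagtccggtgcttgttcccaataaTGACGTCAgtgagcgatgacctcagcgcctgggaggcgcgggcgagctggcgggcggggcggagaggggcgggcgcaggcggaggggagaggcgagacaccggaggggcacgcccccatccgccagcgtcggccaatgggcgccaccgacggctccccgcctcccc
In Fos the TGACG cores lie 129 to 125 and 66 to 62 bases before the start and TATAAA 33 to 28 bases before it. The Junb core lies 106 to 102 bases and the Btg2 element 166 to 159 bases before the start. Searched on both strands, TGACG (which lies inside every TGACGTCA) was in 5 of the 6 members' windows, Klf6 being without it, and in 17.8% of 32851 RefSeq promoter windows of the same length. TGACGTCA was in 1 of 6 against 1.55% of all, TATAAA in 1 of 6 against 12.4%, the AP-1 motif TGANTCA in 0 of 6 against 6.75%, and the serum response element (searched by its consensus) in 0 of 6 against 1.47%. These are letter matches and not measured binding sites. Bases more than 250 before the start were not searched, so a count of 0 does not cover elements further upstream.

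The samples held 568, 198 and 262 anterior cells and 511, 280 and 224 posterior cells (mice 1, 2 and 3), with 1624320 to 3141654 UMIs per sample over the shared genes and a median of 2741 to 8425.5 UMIs per cell. Levels are given as mean UMIs per 10000 UMIs of a cell (CP10K), averaged over the cells of a sample. Epcam had UMIs in 69.9% to 89.7% of the cells of each sample. Mouse 1 stood apart in both regions: enterocyte-like cells made up 18.1% of its anterior and 13.7% of its posterior cells, against 61.6% to 81.8% in mice 2 and 3, and goblet-like cells 35.4% and 43.1%, against 4.29% to 11.6%. The plasma cell transcripts Jchain, Igkc and Igha, listed in the anterior table alone, summed to 75.2 CP10K in anterior mouse 1 and to 0.0113 and 0.0396 CP10K in anterior mice 2 and 3. Mouse 1 was sorted on 2 anterior and 3 posterior plates and every other sample on 1. No plate label occurs in both regions, so a difference between regions cannot be told apart from a difference between their plates. Posterior mouse 2 carries the same plate label as 1 of the posterior plates of mouse 1, and the labels do not say whether these were the same plate. For the samples of mice 2 and 3, each on 1 plate, a plate effect and a sample effect cannot be told apart.

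All 6 genes had a lower mean level in the anterior than in the posterior sample of each of the 3 mice. Of the 5195 genes tested, 12.5% were lower anteriorly in every mouse. The size differed by gene, from a log2 difference of -0.68 for Klf6 to -2.03 for Atf3. With the mouse as a block, Atf3 and Fos passed the test, and without it none of the 6 did.

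Of the AP-1 genes, Fos averaged 10.5, 3.69 and 5.52 CP10K in the anterior samples of mice 1, 2 and 3, against 18.1, 9.67 and 14.4 CP10K in their posterior samples. Every mouse was lower anteriorly, but anterior mouse 1 lay above posterior mouse 2, so the regions overlapped. The means were 6.56 ± 3.51 anterior and 14.0 ± 4.21 posterior (SD, n = 3 each). Junb averaged 3.23, 1.28 and 1.22 CP10K in the anterior samples, against 4.67, 2.53 and 2.17 CP10K in the posterior samples. Here too mouse 1 was highest in both regions and its anterior sample lay above posterior mice 2 and 3. The Junb means were 1.91 ± 1.15 anterior and 3.12 ± 1.35 posterior (SD, n = 3 each).

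Atf3 averaged 0.798, 0.128 and 0.124 CP10K in the anterior samples, against 3.94, 0.679 and 1.78 CP10K in the posterior samples. It was the gene with the largest regional difference of the 6, and only anterior mouse 1 reached into the posterior range. Its means were 0.350 ± 0.388 anterior and 2.13 ± 1.66 posterior (SD, n = 3 each), and cells with at least 1 Atf3 UMI were 9.86%, 1.01% and 3.05% of the anterior samples, against 26.8%, 5.71% and 11.6% of the posterior ones. Btg2 averaged 2.15, 0.351 and 0.643 CP10K in the anterior samples, against 2.86, 1.81 and 1.31 CP10K in the posterior samples. Anterior mouse 1 again lay above 2 of the posterior samples. The Btg2 means were 1.05 ± 0.963 anterior and 1.99 ± 0.792 posterior (SD, n = 3 each).

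Of the Krüppel-like factors, Klf6 averaged 1.69, 1.12 and 1.41 CP10K in the anterior samples, against 2.71, 2.05 and 2.33 CP10K in the posterior samples. It was the single member whose regions did not overlap, as did 10.6% of the genes tested in either direction. Its means were 1.41 ± 0.283 anterior and 2.37 ± 0.332 posterior (SD, n = 3 each). Klf2 averaged 0.987, 0.00565 and 0 CP10K in the anterior samples, against 1.05, 0.188 and 0.540 CP10K in the posterior samples. It was largely a gene of mouse 1, which held 130 of the 135 cells with a Klf2 UMI. In anterior mouse 3, 0 of 262 cells had a Klf2 UMI, which allows a share of cells with a UMI of up to 1.15% (3 counts of the total, counting error only), and in posterior mouse 3 a single cell held 28 of the 29 UMIs.

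**Figure D1:**
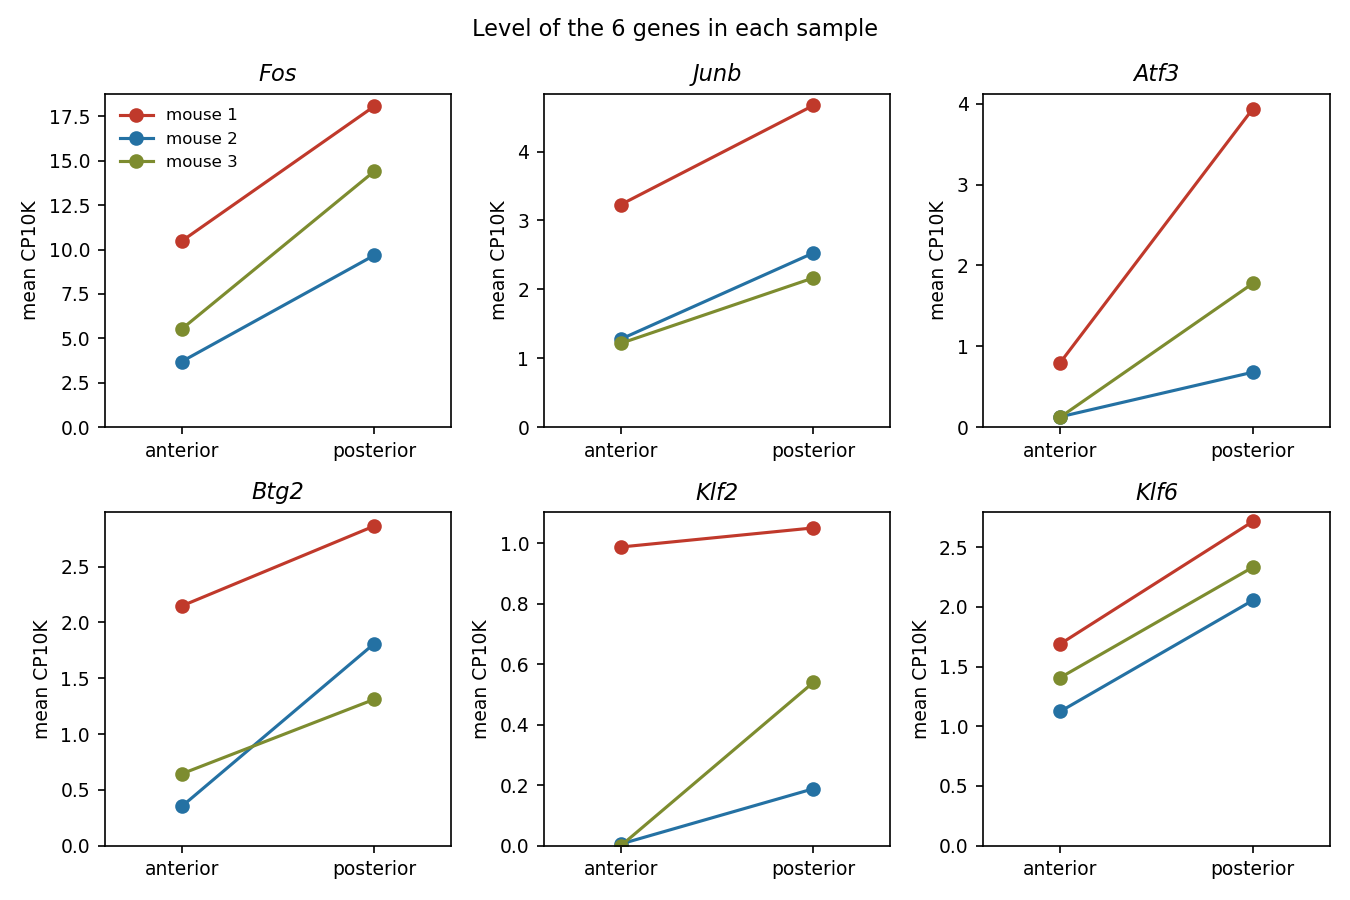
Mean level (CP10K) of each of the 6 genes in the anterior and posterior samples, with a line joining the samples of each mouse. Every line is higher at its posterior end, mouse 1 is the highest mouse in both regions for all 6 genes, and Klf6 is the panel in which anterior (1.12 to 1.69) and posterior samples (2.05 to 2.71) do not overlap.

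On the log2(mean CP10K + 0.2) scale, which understates the change of low genes, the anterior minus posterior differences were -1.16 (SE 0.43) for Fos, -0.71 (SE 0.43) for Junb, -2.03 (SE 0.61) for Atf3, -1.03 (SE 0.52) for Btg2, -0.96 (SE 0.69) for Klf2 and -0.68 (SE 0.28) for Klf6. None passed limma's test after Benjamini-Hochberg adjustment (adjusted p = 0.935 for each). Limma called 0% of the 5195 genes in this comparison, and 236 of them (4.54%) had an unadjusted p under 0.05, among them Atf3, Fos and Klf6. Each mouse gave both regions, and with the mouse as a block limma called 17 of 5195 genes (0.327%), including Atf3 (adjusted p = 0.0208) and Fos (adjusted p = 0.0360). Junb, Btg2, Klf2 and Klf6 had adjusted p = 0.243, 0.236, 0.295 and 0.260 in that fit. Without both samples of mouse 1 and with the block, Fos passed (-1.35, adjusted p = 0.0458) and Atf3 did not (-2.02, adjusted p = 0.120), with 0.46% of 4998 genes called. That fit has 2 mice and 1 residual degree of freedom. The p-values of the other fits measure the spread between 3 mice.

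The same order of the regions was seen in the other measures of the 6 genes. After each cell was thinned to 1000 UMIs, cells with a Fos UMI were 39.5%, 10.7% and 16.96% in the anterior samples, against 52.0%, 30.3% and 28.4% in the posterior samples, and for all 6 genes this share was lower anteriorly in every mouse. For Klf2 the order rests on very few cells in mice 2 and 3. They were 1 of 178 anterior against 2 of 264 posterior cells in mouse 2, and 0 of 230 against 2 of 208 in mouse 3. Within mouse 1 the anterior plates had 8.64 and 13.4 CP10K of Fos and the posterior plates 15.6 to 19.3 CP10K. The plates of this mouse did not overlap between regions for Atf3 either, with 0.588 and 1.13 CP10K anterior and 3.75 to 4.03 CP10K posterior, but they did for Junb, Klf2, Btg2 and Klf6. Malat1, a nuclear-retained long non-coding RNA, was also lower anteriorly in every mouse, with 104, 69.4 and 115 CP10K anterior, against 132, 116 and 132 CP10K posterior (log2 difference -0.43, SE 0.51, adjusted p = 0.949 by limma). Its part in the members' difference was not tested. In cells with at least 3000 UMIs the differences were -1.19 for Fos and -1.57 for Atf3.

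All 6 genes were also highest in mouse 1 among the 3 mice, in both regions, as were 26.4% of the genes tested. Summed over the 6, mouse 1 had 19.3 CP10K in its anterior sample, against 6.58 and 8.91 CP10K in anterior mice 2 and 3, and 33.3 CP10K in its posterior sample, against 16.9 and 22.5 CP10K in posterior mice 2 and 3. Mouse 1 is also the mouse with few enterocyte-like and many goblet-like cells. Among enterocyte-like cells alone it had the highest Fos level anteriorly (6.75 CP10K) but the lowest posteriorly (8.24 CP10K). Its posterior enterocyte-like cells were spread over the clusters in other shares than those of mice 2 and 3. Cluster 2 (3.504 CP10K of Fos) held 51 of its 70, against 14 and 23 posterior cells of mice 2 and 3. Cluster 9 (20.9 CP10K) held 0 of them, against 72 and 46 cells of mice 2 and 3. The cluster levels are means over samples of both regions and not of mouse 1 alone. Their part in the levels of the mice was not tested.

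Cells were grouped into classes by clustering without the 6 genes or the other stress lists, and each class is named by its markers ("-like"). Among enterocyte-like cells, which take up nutrients on the villus, Fos averaged 6.75, 4.76 and 6.57 CP10K in the anterior samples, against 8.24, 10.5 and 15.2 CP10K in the posterior samples. Mouse 1 was not the highest posterior mouse here, and the regions did not overlap. Atf3 had 0.379, 0 and 0.142 CP10K in anterior enterocyte-like cells, against 1.06, 0.721 and 2.14 CP10K in posterior ones, and Klf6 had 1.501, 1.30 and 1.68 CP10K, against 1.95, 2.44 and 2.46 CP10K. The regions did not overlap for these 3 genes, as for 9.42% of the 4980 genes tested in enterocyte-like cells. Junb and Btg2 were higher in the anterior than in the posterior enterocyte-like cells of mouse 1, with 1.31 against 1.02 CP10K and 1.08 against 0.836 CP10K, and lower in mice 2 and 3.

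Limma called 0% of the 4980 genes between regions in enterocyte-like cells, and 203 (4.08%) had an unadjusted p under 0.05, Atf3 and Fos among them. The log2 differences were -2.03 (SE 0.50, adjusted p = 0.846) for Atf3, -1.02 (SE 0.47) for Btg2, -0.86 (SE 0.37) for Fos, -0.55 (SE 0.33) for Klf6 and -0.31 (SE 0.37) for Junb, the last 4 with adjusted p = 0.999, and Klf2 was under the level filter. With the mouse as a block the adjusted p of Atf3 was 0.150. Clusters 10, 1 and 2 held most anterior and clusters 12, 9, 2 and 10 most posterior enterocyte-like cells, so the class was not made of the same cells in the regions. In goblet-like cells, the mucus-secreting class, all 6 differences were negative (-0.43 to -1.61), 0% of 4192 genes were called, 110 (2.62%) had an unadjusted p under 0.05, and each member had adjusted p = 0.991.

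Across classes, over samples with at least 10 cells of a class, the enteroendocrine-like cells had the highest mean of each of the 6 genes, and these samples were both of mouse 1. Over samples with at least 3 cells the order turned for 3 genes: Fos averaged 14.0 CP10K in enteroendocrine-like and 20.1 CP10K in Paneth-like cells, Klf6 2.63 in enteroendocrine-like and 2.66 CP10K in Paneth-like cells, and Klf2 0.960 in enteroendocrine-like and 1.45 CP10K in goblet-like cells. The Paneth-like means turned on 1 sample, posterior mouse 3 with 5 cells, at 77.3 CP10K of Fos and 9.86 CP10K of Klf6. Over Paneth-like samples with at least 10 cells they were 8.70 CP10K of Fos and 1.22 CP10K of Klf6. The goblet-like Klf2 mean rests largely on 1 cell of posterior mouse 3. The hormone-secreting enteroendocrine-like cells had 21.97 CP10K of Fos in anterior mouse 1 (57 cells) and 53.4 CP10K in posterior mouse 1 (32 cells). In the other mice they were few, with 0.188 and 3.02 CP10K of Fos in anterior mice 2 and 3 (7 and 6 cells) and 2.49 and 3.20 CP10K in posterior mice 2 and 3 (8 and 4 cells). Every enteroendocrine-like sample of mice 2 and 3 thus lay below both samples of mouse 1. Within each region mouse 1 was also the highest of the mice for the other members, except for Klf6. Junb had 10.01 CP10K in anterior mouse 1 against 1.56 and 2.40 CP10K, and 14.6 CP10K in posterior mouse 1 against 5.01 and 6.12 CP10K. Atf3 had 4.34 CP10K in anterior mouse 1 against 0 in both others, and 19.5 CP10K in posterior mouse 1 against 0 and 3.89 CP10K. Klf6 had 1.86 CP10K in anterior mouse 1 against 0 and 3.86 CP10K, and 4.65 CP10K in posterior mouse 1 against 0 and 5.41 CP10K, so that mouse 3 was the highest. The enteroendocrine-like cells of posterior mouse 1 had a median of 1341.5 UMIs and 356 CP10K of Malat1, and those of anterior mouse 1 a median of 3549 UMIs and 123 CP10K of Malat1, against 3792.5 to 5875 UMIs and 9.18 to 119 CP10K in mice 2 and 3. The part of depth and Malat1 in these levels was not tested.

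Against enterocyte-like cells of the same sample, the enteroendocrine-like levels passed limma's test for 0 of the 6 genes in either region. This comparison took classes of at least 3 cells and was added after the levels were seen. It called 4.11% of 5133 genes anteriorly and 3.03% of 5081 posteriorly, and the genes with an unadjusted p under 0.05 included Btg2 and Klf2 anteriorly (16.6% of genes) and Junb posteriorly (17.5%). The fitted differences were negative for Fos (-1.03, SE 0.82, anteriorly and -0.50, SE 0.89, posteriorly) and Klf6 (-0.51, SE 1.08, and -0.49, SE 1.08) and positive for the other members, with Junb at 1.27 (SE 0.78) anteriorly and 2.09 (SE 0.82) posteriorly. In cells with at least 3000 UMIs, a setting also chosen after the levels were seen, Junb rose in enteroendocrine-like over enterocyte-like cells in both regions, by 1.84 (SE 0.51, adjusted p = 0.0236) anteriorly and 3.18 (SE 0.59, adjusted p = 0.00288) posteriorly, and Btg2 rose by 2.61 (SE 0.63, adjusted p = 0.00986) anteriorly. Limma then called 11.5% of 5089 and 11.1% of 5064 genes.

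Goblet-like minus enterocyte-like differences passed for none of the 6 genes, while 8.6% of 5152 genes passed anteriorly and 8.37% of 5188 posteriorly. The median gene was lower in goblet-like cells on this scale, by -0.57 anteriorly and -0.50 posteriorly. Klf2 was the member with the smallest p in both regions, with differences of 0.87 (SE 0.39, adjusted p = 0.186) anteriorly and 2.13 (SE 0.91, adjusted p = 0.166) posteriorly. Goblet-like Klf2 had 1.499, 0 and 0 CP10K anteriorly and 1.42, 0 and 5.75 CP10K posteriorly, against at most 0.374 CP10K in any enterocyte-like sample. The mouse 3 value rests on 1 cell. Without posterior mouse 2 the Klf2 difference was 3.19 (adjusted p = 0.0144, with 6.24% of 5273 genes called), a value that also rests on this cell.

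Crypt progenitor-like cells, which carried stem and transit amplifying markers, differed from enterocyte-like cells in Klf6 posteriorly. Posterior progenitor-like cells had 0.745, 0.256 and 0.247 CP10K of Klf6, against 1.95, 2.44 and 2.46 CP10K in the enterocyte-like cells of the same samples. Every progenitor-like sample lay below every enterocyte-like one (37.5% of the genes tested did not overlap, in either direction), and Klf6 fell by 2.10 on the log2 scale (SE 0.65, adjusted p = 0.0455 by limma). It was the 1 member called posteriorly, where 11.2% of 5188 genes were called. Posterior Fos had 11.9, 1.56 and 1.89 CP10K in progenitor-like cells, against 8.24, 10.5 and 15.2 CP10K in enterocyte-like cells. Mouse 1 went the other way from mice 2 and 3, and the difference of -1.66 (SE 0.55) had adjusted p = 0.0600. Btg2 differed by -1.78 (SE 0.66, adjusted p = 0.0886). Without posterior mouse 1, Fos, Junb, Atf3, Btg2 and Klf6 all passed, by -2.27 for Junb to -2.88 for Atf3, where 16.1% of 4909 genes were called. Without posterior mouse 2 or mouse 3, Klf6 was not called (adjusted p = 0.103 and 0.390), nor was it at pseudocount 0.05 (0.0956), in cells with at least 1000 UMIs (0.0503), without the mouse as a block (0.0815) or at clustering resolution 2 (0.0787).

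Anteriorly, progenitor-like Fos had 7.60, 1.11 and 0.627 CP10K, against 6.75, 4.76 and 6.57 CP10K in enterocyte-like cells. Mouse 1 again went the other way. The difference was -1.60 (SE 0.61, adjusted p = 0.107), and 0 members passed where 10.2% of 5152 genes did. Progenitor-like cells had a median of 9258.5 to 15672 UMIs and 2.02 to 14.7 CP10K of Malat1, against 2302 to 10927.5 UMIs and 12.8 to 144 CP10K of Malat1 in enterocyte-like cells. The part of this gap in the members' levels was not tested. The anterior minus posterior difference of the class effects was called by limma for 0% of 4892 genes in goblet-like and 0% of 5356 genes in progenitor-like cells. An unadjusted p under 0.05 was reached by 82 and 191 genes in these fits, Btg2 (1.65, SE 0.74) and Atf3 (1.80, SE 0.84) in progenitor-like cells among them, both with adjusted p = 0.998.

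Over samples with at least 10 cells of a class, Fos averaged 37.7 ± 22.2 CP10K in enteroendocrine-like (SD, n = 2, both of mouse 1), 9.06 ± 6.64 in goblet-like (n = 6), 8.70 ± 5.21 in Paneth-like (n = 5), 8.68 ± 3.74 in enterocyte-like (n = 6), 4.11 ± 4.59 in progenitor-like (n = 6) and 2.02 ± 1.03 CP10K in tuft-like cells (n = 2, both of mouse 1). The goblet-like, Paneth-like and enterocyte-like means lie within each other's spread, and the progenitor-like range overlaps theirs. The tuft-like samples (1.29 and 2.75 CP10K) lay below every enterocyte-like sample (4.76 to 15.2 CP10K). The lower of them also lay below every goblet-like sample (1.41 to 20.8 CP10K), and the higher lay within that range. Junb averaged 12.3 ± 3.22 CP10K in enteroendocrine-like, 4.14 ± 3.44 in Paneth-like, 2.97 ± 1.46 in goblet-like, 1.51 ± 0.464 in enterocyte-like, 0.952 ± 1.04 in progenitor-like and 0.713 ± 0.310 CP10K in tuft-like cells. Its enteroendocrine-like samples lay above every sample of the other classes. Paneth-like cells, named for the antimicrobial secretory cells of the crypt, were the shallowest, with median UMIs of 900.5 to 1686 per sample. Paneth genes such as Lyz1 led their cluster, but other markers were raised in it as well. Of 11 Paneth markers 9 were raised (median log2 ratio 2.13), of 11 goblet markers 10 (2.36) and of 3 plasma cell markers 3.

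**Figure D2:**
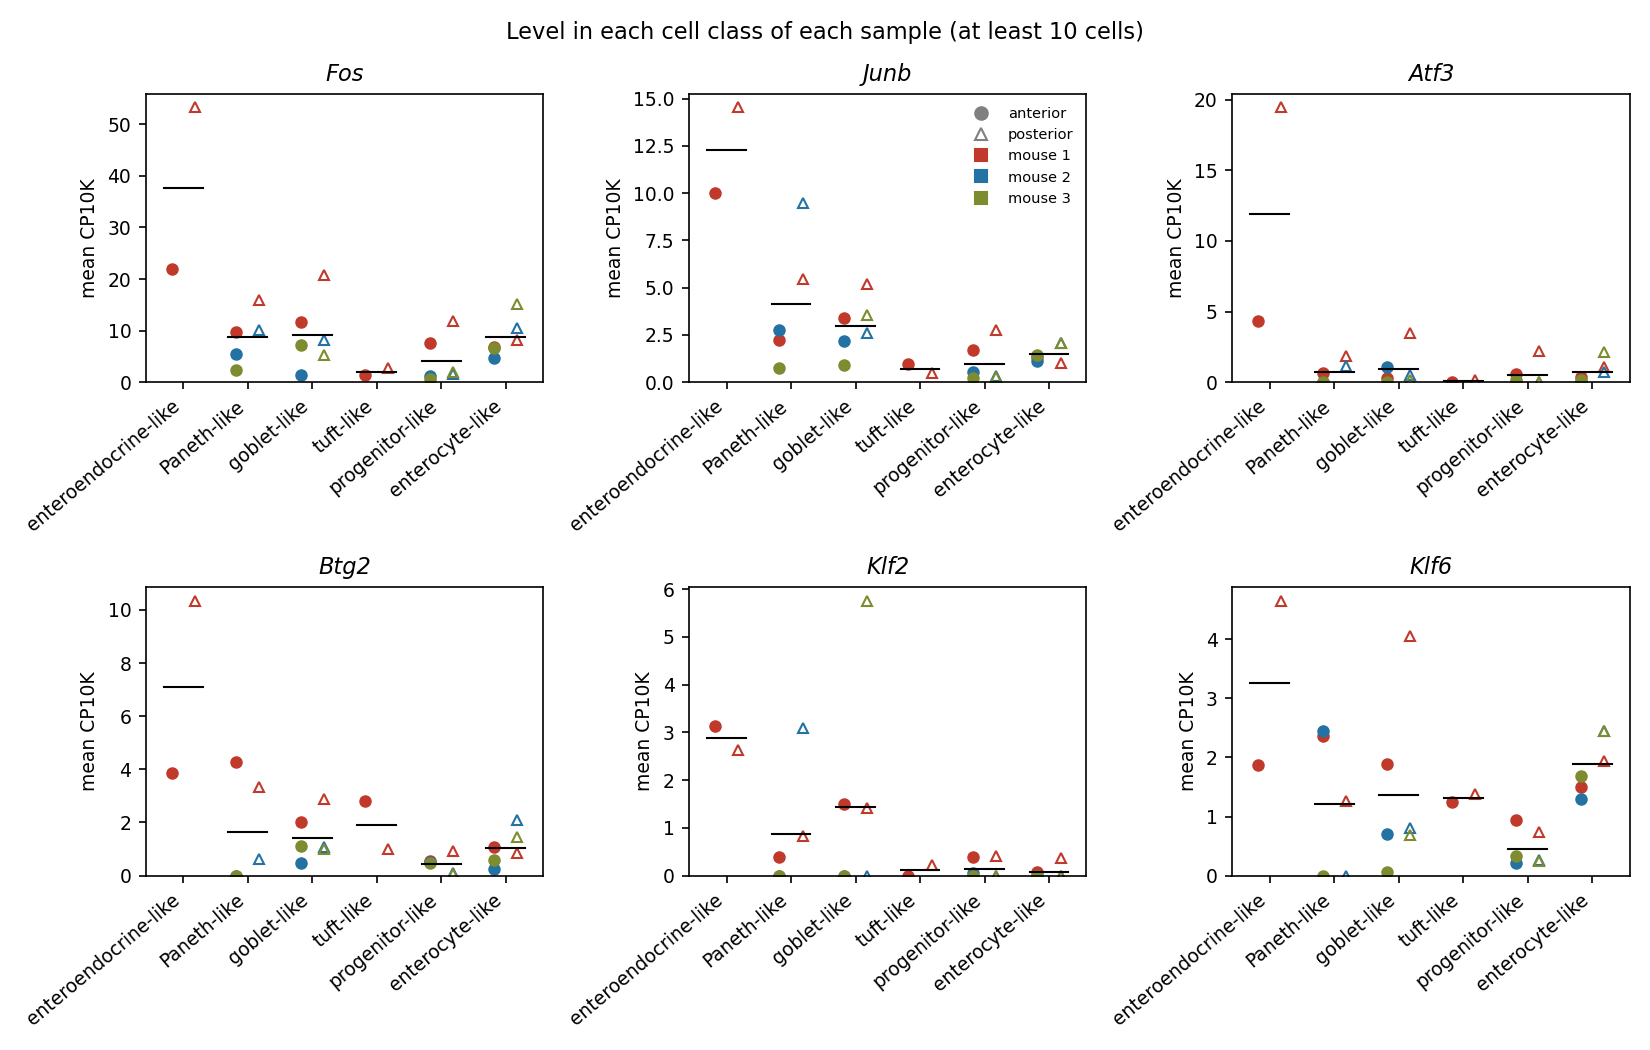
Mean level (CP10K) of the 6 genes per class and sample, for samples with at least 10 cells of the class. Filled circles are anterior and open triangles posterior samples, colours are mice and black bars are means over samples. The enteroendocrine-like values, which come from mouse 1 alone, are the highest for Fos (21.97 and 53.4 CP10K), and the progenitor-like Fos values of mice 2 and 3 lie between 0.627 and 1.89 CP10K.

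In enterocyte-like cells the levels of 5 of the 6 members were higher in shallow cells in most samples, while the other classes differed by gene. Enterocyte-like cells fell into deep clusters (clusters 1, 2 and 12, median 9144 to 11572 UMIs), with 2.38, 3.504 and 2.497 CP10K of Fos, and shallow clusters (9 and 10, median 1641 and 1442 UMIs), with 20.9 and 20.2 CP10K. When each sample's enterocyte-like cells were split at their median UMI count, Fos averaged 13.3 ± 8.61 CP10K in the shallower and 4.11 ± 3.58 CP10K in the deeper cells (SD, n = 6), and was higher in the shallower cells of 5 of 6 samples. Malat1 averaged 174 ± 98.4 CP10K in the shallower and 16.5 ± 16.7 CP10K in the deeper cells, higher in 6 of 6. Klf6 and Btg2 were higher in the shallower cells of 5 of 6 samples, Junb and Atf3 of 4 of 6 and Klf2 of 1 of 6. In goblet-like cells Fos was 11.9 ± 6.83 in the shallower and 6.69 ± 8.80 CP10K in the deeper cells (n = 5), higher in 4 of 5 samples. Junb was also higher in the shallower goblet-like cells of 4 of 5 samples, Btg2 of 3, Klf2 of 2, and Atf3 and Klf6 of 1. In progenitor-like cells Fos was 6.10 ± 4.82 in the shallower and 7.31 ± 6.56 CP10K in the deeper cells, higher in 1 of 3 samples, as were Atf3, Btg2 and Klf2, while Klf6 was higher in 2 and Junb in 3. Samples with a level of 0 in both parts count here as not higher. For Klf2 they were all enterocyte-like samples of mice 2 and 3, goblet-like anterior mice 2 and 3 and progenitor-like anterior mouse 3. For Atf3 it was enterocyte-like anterior mouse 2. These splits by depth are descriptions of cells within samples, in which depth and cell state cannot be told apart.

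**Figure D3:**
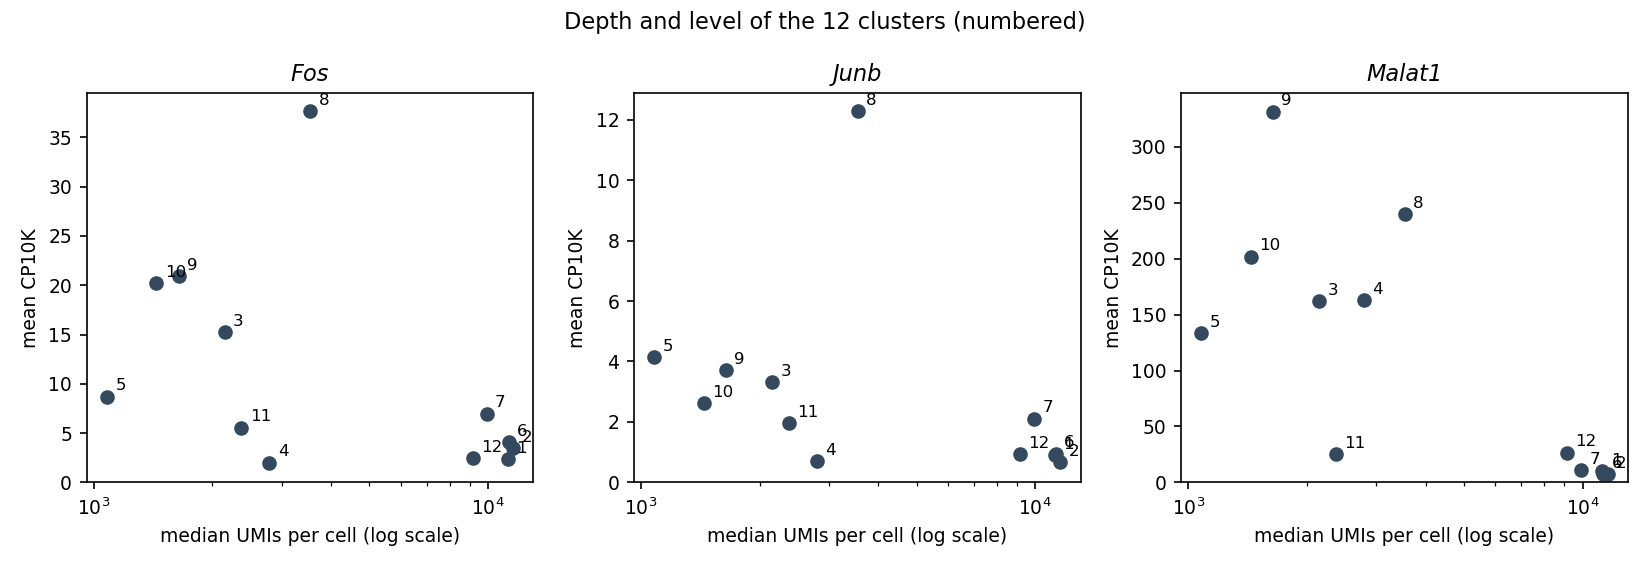
Mean level (CP10K) of Fos, Junb and Malat1 in each of the 12 clusters against the cluster's median UMIs per cell (log axis), averaged over samples with at least 10 of its cells. The 5 clusters with medians of 9144 UMIs per cell or more have 2.38 to 6.97 CP10K of Fos, and the shallower clusters 2.02 to 37.7 CP10K.

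Along the villus, enterocyte-like cells were ranked within each sample by tip minus base landmark genes, none of them a member, and the third of the cells with the highest score (upper cells) was set against the third with the lowest (lower cells). Anteriorly Fos had 8.51, 5.34 and 10.8 CP10K in upper cells, against 7.00, 1.96 and 2.41 CP10K in lower cells (mice 1, 2 and 3). It was higher in the upper cells of every mouse, though the upper value of mouse 2 lay below the lower value of mouse 1. Fos rose by 1.24 (SE 0.40, adjusted p = 0.0417 by limma) and was the 1 member called, where 12.8% of 4871 genes were called. The call was lost without anterior mouse 2 (adjusted p = 0.166) or mouse 3 (0.245), and in cells with at least 3000 UMIs the sign turned (-0.49, SE 0.46, adjusted p = 0.543). It was also lost, with the same sign, at pseudocounts 0.05 and 1, with summed UMIs, without the block, at clustering resolution 2, without clusters 2 and 10, split at the median score and with Apoa4 alone as the score (Fos adjusted p = 0.0549 to 0.823). The differences of the other members were not called, among them Btg2 (1.28, SE 0.57, adjusted p = 0.142), Klf6 (0.81, SE 0.49, adjusted p = 0.301) and Atf3 (0.66, SE 0.43, adjusted p = 0.328).

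Posteriorly 0 members were called, where 2.95% of 4785 genes were called and 18.1% had an unadjusted p under 0.05, among them Atf3, Klf6 and Btg2. Klf6 had 1.89, 4.69 and 2.59 CP10K in upper cells, against 1.83, 0.551 and 0.937 CP10K in lower cells, and its upper and lower cells did not overlap in either region, as for 28.4% of the genes tested anteriorly and 14.8% posteriorly. Anteriorly the gap was small, with a lowest upper value of 1.2505 and a highest lower value of 1.248 CP10K. The posterior Klf6 difference was 1.35 (SE 0.52, adjusted p = 0.141). Atf3 had 0.665, 1.53 and 3.73 CP10K in upper cells, against 1.14, 0.208 and 0.234 CP10K in lower cells, so that mouse 1 went the other way. The rank is within each sample, and the upper cells of posterior mouse 1 were unlike those of mice 2 and 3. They had a median of 9201 UMIs and 16.4 CP10K of Malat1, against 2321.5 and 2063 UMIs and 164 and 246 CP10K. Posterior mouse 1 also had 0 cells of cluster 9, against 72 and 46. The part of this in its values was not tested. The Atf3 difference was 1.54 (SE 0.58, adjusted p = 0.127), and without posterior mouse 1 Atf3 (2.63, adjusted p = 0.0206) and Klf6 (2.00, adjusted p = 0.0464) were called, where 5.5% of 4470 genes were, in a fit with 1 residual degree of freedom. Fos had 7.98, 12.0 and 17.3 CP10K in upper cells, against 8.15, 7.66 and 8.30 CP10K in lower cells (0.55, SE 0.46, adjusted p = 0.546). The anterior minus posterior difference of these effects was called by limma for 0 of 4946 genes, 231 of them with an unadjusted p under 0.05 (Fos 0.69, SE 0.58, adjusted p = 0.984). Upper cells had a median of 1672 to 9201 UMIs per sample and lower cells 8844.5 to 14910, and Malat1 was 171 ± 54.2 in upper and 31.3 ± 14.5 CP10K in lower cells anteriorly, and 142 ± 117 in upper and 37.9 ± 37.9 CP10K in lower cells posteriorly. The part of depth and Malat1 in these differences was not tested.

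**Figure D4:**
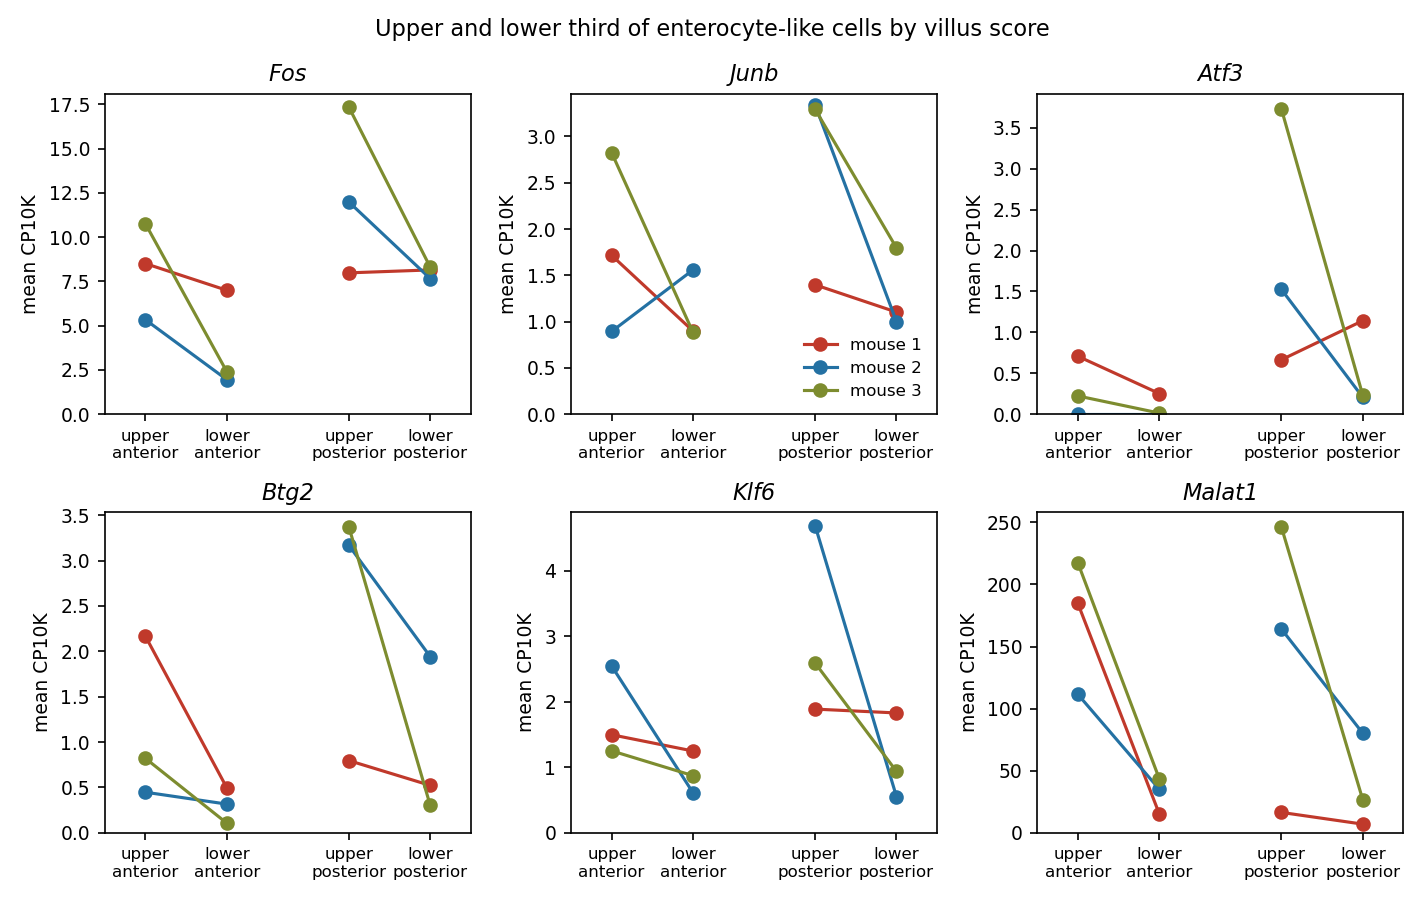
Mean level (CP10K) of Fos, Junb, Atf3, Btg2, Klf6 and Malat1 in the upper and lower enterocyte-like cells of each sample, ranked by villus landmark genes. Klf6 is higher in the upper cells of all 6 samples, and so is Malat1.

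Pooled over samples, cells with a UMI of one member had a UMI of another more often than the product of the shares within their sample gives. Over 1831 cells thinned to 1000 UMIs, the 15 pairs were seen together 775 times, against 538 expected, a ratio of 1.44 (SD over samples 0.24). With the expectation taken within class as well as sample, the ratio was 1.33 (1.02 to 1.67 over samples). With the expectation taken within sample alone, the ratio by sample was 1.43, 1.17 and 1.01 in anterior mice 1, 2 and 3. In posterior mice 1, 2 and 3 this ratio was 1.45, 1.70 and 1.33. All 15 pairs were above 1 when pooled, from 1.23 for Fos with Klf6 (93 cells against 75.7 expected) to 2.20 for Atf3 with Klf2 (13 against 5.90), and Fos with Junb was at 1.26 (149 against 118). The pooled counts came mostly from mouse 1, with 234, 6 and 12 in anterior and 408, 66 and 49 in posterior mice 1, 2 and 3. Of the 15 pairs, 14, 3 and 5 were above expectation in these anterior samples and 15, 12 and 11 in the posterior ones. Atf3 with Klf2 was above it in 2 samples, both of mouse 1. Fos with Junb was the 1 pair above its expectation in all 6 samples. Correlations over single cells were low, with a median over the 15 pairs of 0.09, -0.02 and -0.01 (Pearson's r) in anterior mice 1, 2 and 3, of 509, 178 and 230 cells, and of 0.13, 0.08 and 0.06 in posterior mice 1, 2 and 3, of 442, 264 and 208 cells. The largest was 0.32, for Fos with Atf3 in posterior mouse 1.

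**Figure D5:**
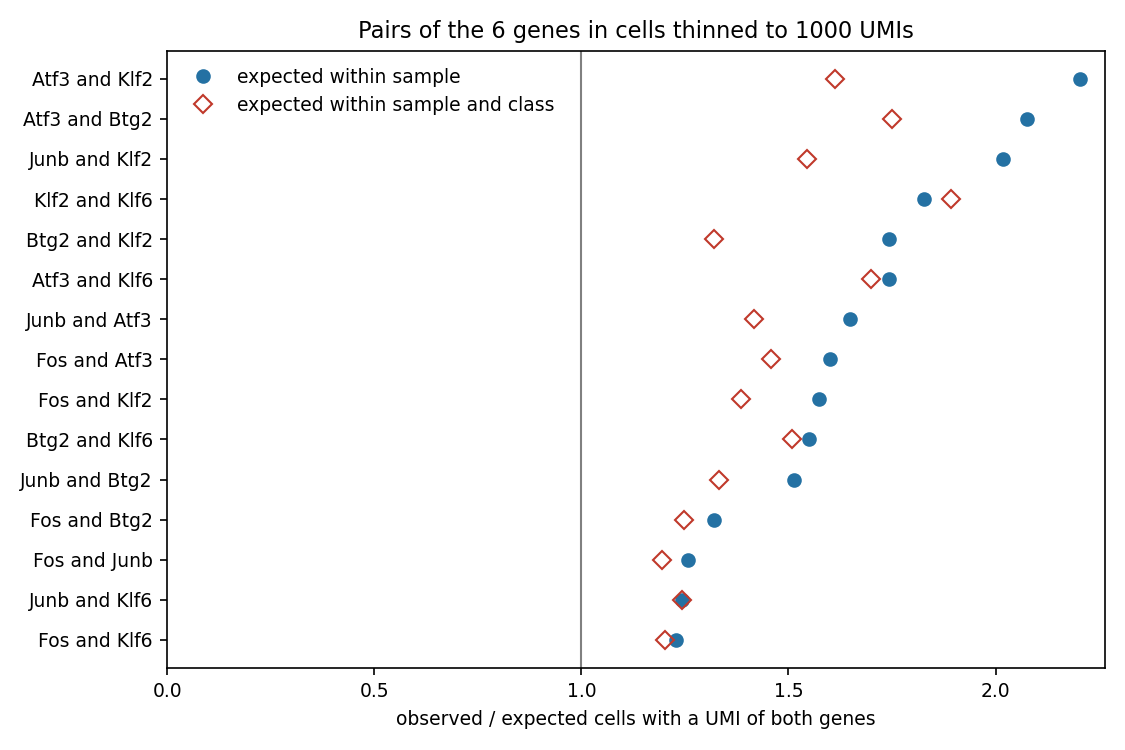
Observed over expected number of cells with UMIs of both genes for the 15 pairs of members, over cells thinned to 1000 UMIs, with the expectation taken within sample and within sample and class. All pairs lie above 1 by both, from 1.23 to 2.20 within sample. Counts are pooled over the samples and come mostly from mouse 1.

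Cells with 3 or more of the 6 genes numbered 118 of 1831, against 74.0 expected if the genes were independent within samples and 84.8 within samples and classes. They came mostly from mouse 1, with 34, 0 and 0 in anterior mice 1, 2 and 3 and 68, 9 and 7 in posterior mice 1, 2 and 3. In mouse 1 they were 25 of 77 enteroendocrine-like cells (32.5%), 56 of 400 goblet-like cells and 3 of 165 enterocyte-like cells (1.82%). In mice 2 and 3 they were 0 of 25 enteroendocrine-like, 1 of 77 goblet-like and 13 of 656 enterocyte-like cells (1.98%), so the order of the classes in mouse 1 was not seen in the other mice. Cells without any member numbered 871, against 772 expected.

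Of 5195 genes, the one whose level over the cells of a sample was most like the sum of the 6 members was Malat1, with a mean Pearson's r of 0.30 over 6 samples (0.15 to 0.40). It was followed by Gm42726 (0.22), Gm26917 (0.21), Jun, the partner of Fos in AP-1 (0.20), Myo15b (0.20), Neat1, another nuclear long non-coding RNA (0.18), Slc9a3r1 (0.18), Tut7 (0.17), the Krüppel-like factor Klf4 (0.16) and ENSMUSG00000095041 (0.16). For Fos alone the closest were Malat1 (0.27), Myo15b (0.19) and Gm42726 (0.19), and for Junb Malat1 (0.14), Neat1 (0.14) and the goblet cell gene Fcgbp (0.13). For Atf3 they were Ppp1r15a, a phosphatase subunit of the integrated stress response (0.19 over 4 samples), Fosb, a further AP-1 subunit (0.18, and 0.12 without its highest sample), and Vps26a (0.17, and 0.00692 without its highest sample). For Btg2 they were Atf3 (0.13), Cnot3, a subunit of the CCR4-NOT deadenylase (0.13, and 0.0595 without its highest sample), and Cc2d1b (0.12). For Klf6 they were Wwc1 (0.14), Nfat5 (0.13) and Apoc3 (0.12), and for Klf2, seen in few cells, Wdr43 (0.24 over 5 samples), Myo1c (0.19 over 4) and Mfge8 (0.19 over 5). Without the highest sample of each, these means were 0.16 for Wdr43, 0.0215 for Myo1c and -0.0131 for Mfge8, so the last 2, like Vps26a, rest on 1 sample. For these correlations the cells were thinned to 1000 UMIs. The part of the cells' original depth in them was not tested.

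Of 57 other immediate early genes listed for comparison, 30 were in both tables. Their summed level was 41.0, 25.3 and 25.6 CP10K in anterior mice 1, 2 and 3, against 75.6, 42.7 and 46.7 CP10K in posterior mice 1, 2 and 3, lower anteriorly in every mouse, with mouse 1 highest as for the members. Between regions 0 of the 30 passed limma's test in either direction, 6 had an unadjusted p under 0.05 (4.54% of all genes did), 26 had a negative difference (43.1% of all genes did), and the median was -0.50, against 0.06 over all 5195 genes and -0.995 over the 6 members. The 2 of smallest p were Hbegf, a ligand of the EGF receptor (-1.49, SE 0.35), and Jun (-1.40, SE 0.37), both with adjusted p = 0.935. Of the other Krüppel-like genes 5 of 14 were in both tables, none passed and 4 were negative, with Klf4, a regulator of goblet and villus differentiation, at -1.15 (SE 0.41). Stress lists of other kinds had medians nearer to that of all genes. Of 13 heat shock and chaperone genes 3 were negative (median 0.24), of 12 integrated stress response genes 8 (median -0.21), and of 8 p53 targets 3 (median 0.09), with 0 called in each.

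Along the villus and between classes some of these relatives passed the test. Along the anterior villus 3 of 26 other immediate early genes were called, where 12.8% of all genes were. Klf4 (2.45, SE 0.51, adjusted p = 0.00229), Jun (1.92, SE 0.41, adjusted p = 0.00306) and Nfkbia, an inhibitor of NF-kappaB (1.77, SE 0.52, adjusted p = 0.0291), rose in upper cells and 0 fell. Posteriorly 3 of 27 were called, where 2.95% of all genes were, and Jun (2.20, SE 0.47, adjusted p = 0.00762), Klf4 (2.07, SE 0.49, adjusted p = 0.0144) and Ccnl1 (2.23, SE 0.61, adjusted p = 0.0321) rose. In progenitor-like against enterocyte-like cells 1 of 27 was called anteriorly and 3 of 29 posteriorly, where 10.2% and 11.2% of all genes were. Klf4 fell by 2.69 anteriorly (SE 0.54, adjusted p = 0.00398) and by 3.23 posteriorly (SE 0.75, adjusted p = 0.0111), the kinases Sgk1 and Pim1 fell posteriorly (adjusted p = 0.0467 and 0.0487), and so did the p53 target and cell cycle inhibitor Cdkn1a (-2.55, SE 0.60, adjusted p = 0.0111). The chaperones Hspe1 and Hsp90ab1 rose in progenitor-like cells in both regions, Hspe1 by 2.29 anteriorly (SE 0.49) and 2.76 posteriorly (SE 0.55), which is the opposite direction to Klf4.

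Markers of other cell types that an epithelial sort could carry were few in these tables. Of 14 T cell markers 1 (Cd8a) and of 11 stromal or endothelial markers 1 (Pecam1) were listed, at 0.0693 to 0.267 and 0.124 to 0.462 CP10K per sample. Of 9 B or plasma cell markers 3 were listed, in the anterior table alone, and they summed to 75.2 CP10K in anterior mouse 1. Of 10 myeloid markers 1 (Cd14) was listed, in the posterior table alone, at 0.0824 to 0.329 CP10K. Klf2 is known as a gene of endothelial and T cells, so the cells with a Klf2 UMI were set beside the others. Pecam1 had a UMI in 17.8% of the 135 Klf2 cells and in 17.1% of the 1908 others. Cd8a had one in 14 of the 135 and in 142 of the 1908. The Klf2 cells were deeper, with a median of 5252 UMIs against 3227 in the others, and 130 of them were of mouse 1. The shares are thus not at like depth or from a like mix of mice. The labels also give wells a positive or negative mark whose meaning they do not state. Fos had 10.4 ± 5.64 CP10K in positive and 10.2 ± 5.18 CP10K in negative wells (SD, n = 6 samples), higher in the positive wells of 3 of 6 samples.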

How the data were processed

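Single-cell libraries of 6 samples were measured. The submitters' processing notes name bcl2fastq, UMI-tools (1.0.0), cutadapt (1.18), STAR (2.6.1b), R (3.5.1) and the mouse build GRCm38/mm10. Each region has its own deposited table of log2 values, which the authors corrected before deposit. Tested on the values, an entry equals the log2 of 1 plus the size-factor-scaled UMI count, less per-gene terms for the amplification pool and 2 covariates. With these terms taken off, 100% of entries in each table came out as whole UMIs (tolerance 0.01), and 0 columns had no sample. Between tables, 5674 shared genes were used, which held at least 96.1% of each sample's UMIs.

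Because the deposited unit is log2, no count model was run. Mean CP10K per sample, or per class and sample with at least 10 cells, was taken as log2(mean + 0.2), genes averaging under 0.2 were left out, and the rest were tested with limma 3.58.1 (eBayes with trend, R 4.3.3). P-values were adjusted by Benjamini-Hochberg over all genes tested and called at 0.05. The fits were also tested on simulated data. Region fits have no block, and class and villus fits have the mouse as a block. Anterior and posterior samples of a number come from the same mouse, and their deviations from the region means correlated at 0.69, 0.28 and 0.30 (mice 1, 2 and 3), against -0.47 to 0.27 between different mice. The negative values were all of mouse 1 with another mouse. Between mice 2 and 3 the values were 0.24 and 0.27, so these correlations set mouse 1 apart but hardly tell mice 2 and 3 from each other.

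Cells were clustered with scanpy 1.11.5 and leidenalg 0.10.2 (1500 variable genes, 25 components, 15 neighbours, resolution 1, 12 clusters), without 73 genes of the member, immediate early, heat shock, stress and p53 lists. A class needed 3 markers with a log2 ratio above 1 (pseudocount 0.5 CP10K), by a rule chosen after the clusters were seen. Clusters 2 and 10, named enterocyte-like, were not led by enterocyte markers, and in cluster 2 the 3 listed plasma cell markers were raised. Wells were sorted singly, so no doublet caller was run. Shares have 95% Wilson intervals, which cover counting error only.

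Named were the 6 members, at most 6 called genes per list and comparison (or the 2 of smallest p), and the genes most like each member over cells. The members and lists were chosen with earlier results of these data known. The enteroendocrine-like comparison, the fits without mouse 1, with classes weighted equally, without clusters 2 and 10 and in cells with at least 3000 UMIs were added after seeing the data. Promoters are from RefSeq and were printed only where they overlap no exon.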

Additional observations from a re-analysis of the deposited data

How the results depend on the processing

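The log2 difference between regions over all cells kept its sign in 100 of 100 values under the alternatives (pseudocounts of 0.05 and 1, no level filter, summed UMIs, cells with at least 1000 or 3000 UMIs, quantile normalization, each sample left out, classes weighted equally, the block and the fits without mouse 1). Its replicate block called 2 members, against 0 without it, and 1 without both samples of mouse 1. In enterocyte-like cells the sign held in 95 of 95. In goblet-like cells it turned in 5 of 108: Atf3 was 0.11 without mouse 1 with and without the block, and with 1 sample left out Atf3 ranged from -1.58 to 0.0859 and Btg2 from -0.85 to 0.0180. Over all comparisons 45 of 939 member values changed sign and 854 kept their sign and call. The causes were not tested.

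Counts of members called moved as follows, with the genes called of all genes tested in brackets. Goblet-like minus enterocyte-like gave 1 anteriorly in cells with at least 3000 UMIs (1770 of 5085). Posteriorly it gave 1 in such cells (907 of 5243) and at Leiden resolution 0.5 (551 of 5242) and 2 (213 of 5140). With a posterior sample left out it gave 0 to 1. Progenitor-like minus enterocyte-like gave 1 anteriorly in cells with at least 1000 UMIs (1288 of 5253) and at resolution 0.5 (1205 of 5252). Posteriorly it gave 0 at pseudocount 0.05 (343 of 5188), with at least 1000 UMIs (539 of 5147), with no replicate block (482 of 5188) and at resolution 2 (401 of 5140). It gave 2 with quantile normalization (787 of 5188), and 0 to 5 with a sample left out. Upper minus lower cells anteriorly gave 0 at pseudocounts 0.05 (528 of 4871) and 1 (399 of 4871), with summed UMIs (791 of 4897) and with at least 3000 UMIs (401 of 4822). They also gave 0 with no replicate block (49 of 4871), at resolution 2 (235 of 4753) and without clusters 2 and 10 (73 of 4333). The same held split at the median score (136 of 4931) and with Apoa4 alone as the score (118 of 4888). With a sample left out they gave 0 to 1. Posteriorly they gave 1 with at least 1000 UMIs (180 of 4811) and at resolution 2 (142 of 4745). They gave 2 without clusters 2 and 10 (211 of 4240), and 0 to 2 with a sample left out. Enteroendocrine-like minus enterocyte-like gave 2 anteriorly (585 of 5089) and 1 posteriorly (561 of 5064) with at least 3000 UMIs. From summed UMIs, which weight deep cells more, posterior Fos was 7.76 CP10K, and Klf6 was 0.996 anteriorly and 1.68 CP10K posteriorly.

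Signs turned for Fos in anterior goblet-like cells (0.0282 summed, 0.00933 with at least 1000 UMIs, 0.49 quantile, 0.34 with at least 3000 UMIs, 0.10 and 0.0622 at resolution 0.5 and 2, 0.70 without clusters 2 and 10, -0.75 to 0.44 with a sample left out) and in posterior ones (0.53 quantile, 0.76 and 0.67 at resolution 0.5 and 2, 0.16 without clusters 2 and 10, -0.93 to 0.47). In posterior goblet-like cells Atf3 was 0.32 with at least 3000 UMIs (-1.52 to 0.59 with a sample left out) and Btg2 -0.22 and -0.36 at resolution 0.5 and 2 and -0.0029 without clusters 2 and 10 (-0.65 to 0.56). In anterior ones Atf3 ranged from -0.35 to 1.28. In anterior progenitor-like cells Atf3 was -0.31 without clusters 2 and 10, and Btg2 was 0.33 summed, 0.29 and 0.46 with at least 1000 and 3000 UMIs and 0.48 without clusters 2 and 10 (-0.49 to 0.18). In anterior upper minus lower cells Fos was -0.49 with at least 3000 UMIs and Klf6 -0.70 with Apoa4 alone. In enteroendocrine-like cells Fos was 0.15 anteriorly and 0.25 posteriorly and Atf3 -0.0762 posteriorly with at least 3000 UMIs, Fos 0.0799 summed and Klf6 0.0159 at pseudocount 1 posteriorly. With a sample left out, anterior Fos ranged from -2.38 to 0.30 and Klf6 from -1.31 to 0.69, and posterior Fos from -2.08 to 0.34, Atf3 from -0.70 to 2.38, Btg2 from -0.91 to 1.48 and Klf6 from -1.32 to 1.13.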
